A study of Mus musculus with 8 samples.

Results

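The genes described here encode the nuclear subunits of the oxidative phosphorylation complexes, chosen by gene symbol alone: Ndufa, Ndufb, Ndufc, Ndufs or Ndufv with a number, Sdha to Sdhd, the Uqcr genes with Cyc1, the Cox genes of subunits 4 to 8 that fit the symbol pattern, and Atp5 with any suffix, pseudogenes left out. The rule found 81 of the 48440 genes of the table. Of these, 36 belonged by name to complex I, 4 to complex II, 9 to complex III, 15 to complex IV and 17 to complex V. The level was high enough for testing in 77 of the 81. The rule uses symbols and no measured value, though it was proposed with earlier results of these data known.

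The study used RNA-seq on 2 lines of mouse embryonic stem cells (129/Ola, stage given as blastocyst): a parental line, CTNNB1+/+, and a knock-out line, CTNNB1-/-, that lacks β-catenin, the transcriptional effector of the canonical Wnt pathway. Each line received CHIR99021, an inhibitor of the kinase GSK3 that stabilises β-catenin, at 3 μM, or the vehicle DMSO at 0.3 μl/ml, for 72 hours, and each of the 4 groups had 2 libraries. All groups grew without feeder cells on gelatin in medium with serum. The labels describe 1 parental and 1 knock-out line, so that genotype and cell line cannot be told apart, and do not say whether the libraries of a group came from separate cultures, so that the p-values measure only the spread between these libraries.

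Oxidative phosphorylation takes place in the inner mitochondrial membrane. Complexes I and II pass electrons from NADH and succinate to ubiquinone, complex III passes them on to cytochrome c, complex IV to oxygen, and complex V, the ATP synthase, uses the proton gradient that complexes I, III and IV build. All complexes but II combine nuclear subunits with a few that the mitochondrial genome encodes. Embryonic stem cells in culture draw on both glycolysis and respiration.

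Library totals ran from 23650572 to 27680649 estimated counts, and log2 levels of the replicates of a group correlated across genes with r from 0.9866 to 0.9894. Ctnnb1, the targeted gene, was at 813 to 906 CPM (counts scaled to a common library size, with a factor for composition) in the 4 parental libraries and at 7.98 to 10.7 CPM in the 4 knock-out libraries. The 6 markers of pluripotent stem cells, Pou5f1 and Nanog among them, summed to 4529 to 5099 CPM in every library, which fits the labelled cell type. Markers of other cell types were low: the 6 for fibroblasts or feeder cells summed to 9.40 to 21.95 CPM (Lum at 0 in all libraries), the 6 for endoderm to 9.54 to 24.2 CPM and the 6 for striated muscle to 1.76 to 4.04 CPM. These marker sums were not level across groups. Fibroblast markers summed to 9.40 to 11.1 CPM in parental DMSO and 20.4 to 21.95 in parental CHIR99021 libraries, with 13.3 to 17.2 in the knock-out libraries. Endoderm markers summed to 9.54 to 11.46 CPM in parental CHIR99021 libraries and 19.4 to 24.2 in the others. The 6 neural markers summed to 112 to 115 CPM in parental DMSO libraries, 55.4 in both parental CHIR99021 libraries, 111 to 118 in knock-out DMSO libraries and 93.3 to 95.3 in knock-out CHIR99021 libraries.

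The 81 genes together held 1.101% to 1.204% of all CPM in the 8 libraries. Per kb of exon, which allows genes to be compared, the level was highest for the catalytic β subunit of the ATP synthase, Atp5b, at 494 CPM per kb (mean of 8 libraries). Its α partner Atp5a1 was at 359 CPM per kb, and both together held 59.6% of the summed CPM of complex V. In complex I the level was highest for Ndufa4 at 124 CPM per kb and lowest for Ndufb2 at 6.26. Ndufa4 carries a complex I name but its protein is now counted to complex IV. In complex II the membrane anchor Sdhd led at 93.8 CPM per kb, and the iron-sulfur subunit Sdhb was lowest at 34.5. The 9 complex III genes lay between Uqcrq at 42.2 and Uqcr10 at 159 CPM per kb. In complex IV the range ran from Cox7a1 at 7.45 to Cox6b1 at 229 CPM per kb, and at the low end of complex V stood Atp5s at 2.39, which is named like a subunit but is not part of the ATP synthase itself. Exon length was taken over all annotated transcripts of a gene, so a gene with long, little-used transcripts is given a low level per kb.

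**Figure D1:**
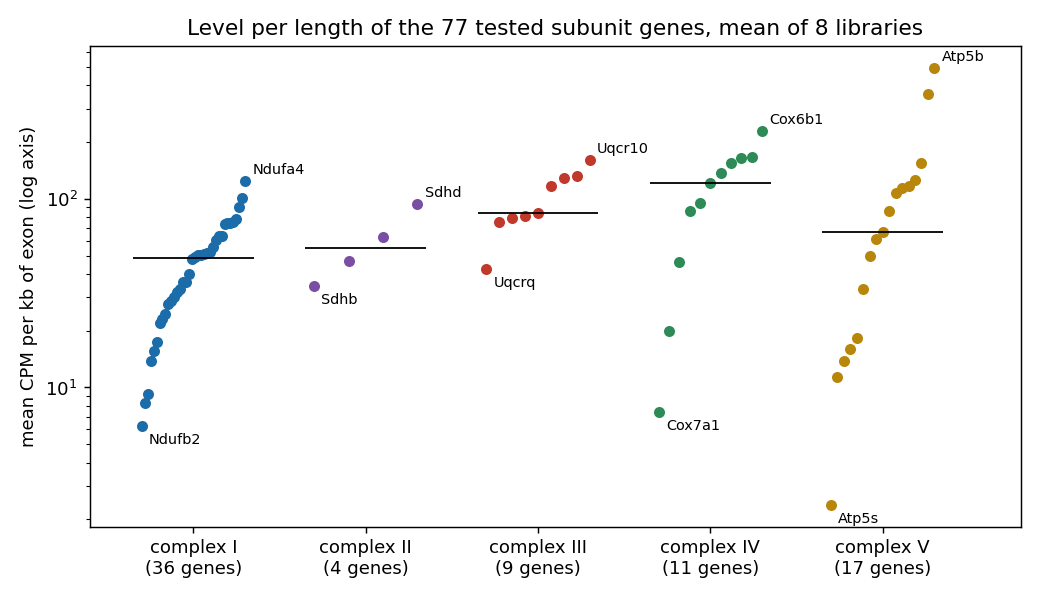
Mean CPM per kb of exon over the 8 libraries (log axis) for the 77 tested genes, grouped by complex on the horizontal axis; each point is 1 gene, the line is the median of the complex, and the lowest and highest gene are named. Complex V spans the widest range, from Atp5s at 2.39 to Atp5b at 494, and complex III stays between 42.2 and 159.

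Complex IV has isoform genes of limited tissue range, and these were silent or low. The muscle isoforms Cox6a2 and Cox8b had 1 count each over all 8 libraries. The testis isoforms Cox7b2 and Cox8c had 34 and 25 counts in all. None of these 4 genes passed the filter on low counts. Cox7a1, known from heart and skeletal muscle, was detected at 3.32 to 5.40 CPM against 122 to 140 CPM for its widely expressed partner Cox7a2. Cox6b2, known from testis, stood at 18.0 to 28.8 CPM against 150 to 182 CPM for Cox6b1. Per kb, Cox6b1 and Cox6b2 were at 229 and 19.8, and Cox7a2 and Cox7a1 at 138 and 7.45. Among the Atp5g genes, which encode the same mature c subunit of the ATP synthase rotor, Atp5g3 led at 126 CPM per kb, followed by Atp5g1 at 33.4 and Atp5g2 at 13.8. The value of Atp5g2 is uncertain: near-identical annotated copies (at least 95% identity over at least 50% of the transcript) held 88.2% of the reads of Atp5g2 and its copies. The same share was 51.4% for Ndufs5, 37.7% for Atp5l and 8.97% for Cox7c, and it was under 5% for all other members.

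Summed over its members, complex III had the widest ratios between the parental CHIR99021 group and the others among the 5 complexes. Its 9 genes summed to 1327 and 1330 CPM in the parental DMSO libraries, to 1472 and 1448 in parental CHIR99021 libraries, to 1301 and 1242 in knock-out DMSO libraries and to 1302 and 1292 in knock-out CHIR99021 libraries. The parental CHIR99021 libraries thus lay above the 6 others, with a mean 1.099 times that of parental DMSO, and the knock-out CHIR99021 mean was 0.888 times the parental CHIR99021 mean. For complex I the same ratios were 1.034 and 0.942, for complex II 1.001 and 0.983, for complex IV 1.057 and 0.941 and for complex V 0.995 and 0.952. All 81 genes summed to 11604 ± 27.6 CPM in parental DMSO, 11881 ± 223 in parental CHIR99021, 11282 ± 382 in knock-out DMSO and 11189 ± 91.9 in knock-out CHIR99021 (mean ± SD, n = 2 libraries each). These sums carry no test. In bulk samples such as these, fewer cells of a type and less RNA per cell cannot be told apart.

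**Figure D2:**
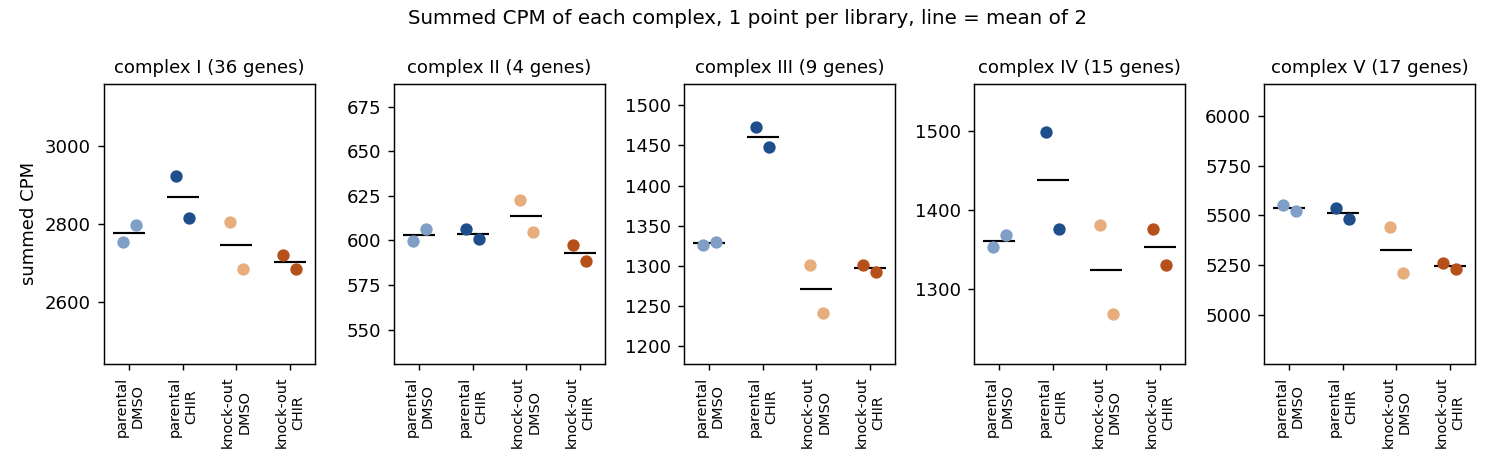
Summed CPM (vertical axis, not starting at 0, on the same relative scale in each panel) of the members of complexes I to V in the 4 groups; each point is 1 library and the line the mean of 2. In complex III both parental CHIR99021 libraries (1472 and 1448) lie above all other libraries, while in complexes I and IV the first parental CHIR99021 library lies high and the second close to the other groups.

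CHIR99021 against DMSO in parental cells asks how the subunit genes respond to GSK3 inhibition where β-catenin is present. The changes were small, 1.34-fold at most, and mostly upward. By edgeR's quasi-likelihood test, adjusted after Benjamini and Hochberg across 17739 genes, 9 of the 77 members rose and 1 fell at an adjusted p under 0.05. Over all genes tested 9.1% rose and 10.3% fell, 19.4% in all, so the members' share of called genes was not above the background. The median log2 fold change was 0.072 over the members, with 56 of 77 above 0, and 0.0040 over all genes. In complex III 3 of 9 genes rose and all 9 had positive values (median 0.13). In complex I 3 of 36 rose and 1 fell, in complex IV 2 of 11 rose, in complex V 1 of 17 rose, and in complex II none of 4 passed the test (1 of the 4, Sdhd, had an unadjusted p under 0.05).

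Uqcrc1, the larger core protein of complex III (chr9:108936633-108949623, plus strand, GRCm38), had the smallest adjusted p of the members in this comparison. It was at 317 and 310 CPM in parental DMSO libraries and at 368 and 370 CPM with CHIR99021, so that the groups did not overlap. Its log2 fold change was 0.23 ± 0.044 (SE, adjusted p = 0.00308, edgeR). This call held under all 17 alternative settings. Uqcr10, a small accessory subunit, rose by 0.18 ± 0.056 (adjusted p = 0.0411, edgeR), and Uqcrfs1, the Rieske iron-sulfur protein, by 0.15 ± 0.041 (adjusted p = 0.0306, edgeR).

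In complex I, Ndufs8 (chr19:3908863-3912774, minus strand), an iron-sulfur subunit on the way from NADH to ubiquinone, went from 35.9 and 36.3 CPM to 45.1 and 44.1 CPM. That was a log2 fold change of 0.30 ± 0.069 (adjusted p = 0.00966, edgeR). Ndufb6, an accessory subunit of the membrane arm, went from 55.6 and 57.6 CPM to 68.6 and 65.3 CPM, or 0.24 ± 0.051 (adjusted p = 0.00671, edgeR). Ndufa4 rose from 163 and 169 to 194 and 184 CPM, or by 0.19 ± 0.042 (adjusted p = 0.00971, edgeR). The one member that fell was Ndufa8 (chr2:36036326-36049406, minus strand), an accessory subunit with the cysteine motifs of proteins of the intermembrane space. It was at 60.5 and 61.7 CPM with DMSO and at 54.2 and 49.6 CPM with CHIR99021, a log2 fold change of -0.23 ± 0.059 (adjusted p = 0.0169, edgeR).

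In complex IV the 2 genes that rose were the isoform pair Cox6b1 and Cox6b2. Cox6b1 rose by 0.18 ± 0.050 (adjusted p = 0.0298, edgeR), from 151 and 162 to 182 and 171 CPM. Cox6b2 went from 18.0 and 21.1 to 28.8 and 23.5 CPM, or 0.42 ± 0.13 (adjusted p = 0.0459, edgeR), the highest log2 fold change of all members in this comparison. In complex V the c subunit gene Atp5g3 rose from 276 in both DMSO libraries to 316 and 298 CPM, or by 0.15 ± 0.041 (adjusted p = 0.0221, edgeR). The catalytic pair did not pass the test: Atp5b had a log2 fold change of -0.050 (adjusted p = 0.349, edgeR) and Atp5a1 of -0.070 (adjusted p = 0.189, edgeR).

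The count of 10 called members fell to 1 without the first parental DMSO library, to 5 without the second and to 2 without the first parental CHIR99021 library. The 3 calls in complex III fell to 1 when any 1 of 5 libraries was left out: the first parental DMSO, either parental CHIR99021 or either knock-out CHIR99021 library. In the first parental CHIR99021 library the members as a whole stood higher than in its replicate (median log2 difference 0.067, 61 of 77 higher, against 0.00024 over all genes). Without that library the members' median was 0.020. The gap between replicates was wider in knock-out DMSO (0.082, 65 of 77 higher in the first library, against 0.0046 over all genes). It was 0.025 in knock-out CHIR99021 (50 of 77) and -0.011 in parental DMSO (34 of 77). The neural markers fell in 6 of 6 and the pluripotency markers in 4 of 6 cases in this comparison, while 2 of 3 tested fibroblast markers rose and 1 of 3 tested endoderm markers fell. Their part in the members' values was not tested.

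The same treatment in knock-out cells asks for the response where β-catenin is absent. Of the 77 members 1 rose and 2 fell, against 2.88% and 4.18% of all genes tested, 7.06% in all. The median was -0.00085, with 38 members above and 39 below 0. Ndufa8 fell here too, from 59.2 and 55.0 to 48.7 and 47.1 CPM, a log2 fold change of -0.25 ± 0.058 (adjusted p = 0.027, edgeR). It was the only member called in both lines, and these 2 comparisons share no libraries. The other member that fell was Atp5sl, which despite its name is not a subunit of the ATP synthase. It went from 39.2 and 36.8 to 31.5 and 30.9 CPM, or -0.29 ± 0.064 (adjusted p = 0.0246, edgeR). Cox6c, a small membrane subunit of complex IV, rose from 155 and 148 to 173 and 171 CPM, or by 0.18 ± 0.044 (adjusted p = 0.0343, edgeR). Of the 6 neural markers 3 fell in this comparison, and their part in the members' values was not tested. The median was 0.0050 with library totals alone and 0.017 with upper-quartile factors, so its sign depends on the scaling. No member was called without the first knock-out DMSO library or without either knock-out CHIR99021 library.

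For the 9 members that rose in parental cells, the values in knock-out cells ran lower without exception. Uqcrc1 had 0.012 ± 0.044, Ndufs8 -0.037 ± 0.069, Ndufb6 0.013 ± 0.051, Atp5g3 -0.046 ± 0.041 and Cox6b2 0.16 ± 0.13 on the log2 scale. The members were picked for their rise in 1 line, which by itself favours a lower value in the other. The test of the difference itself, the interaction of genotype and CHIR99021, called no member with edgeR at an adjusted p under 0.05. Over all genes it called 6.13%, 3.22% higher and 2.91% lower. Of the 77 members, 10 had an unadjusted p under 0.05, all with a lower response in knock-out cells, and the median was -0.067 with 57 of 77 below 0. The smallest adjusted p values belonged to Uqcrc1 (-0.22 ± 0.062, adjusted p = 0.0594), Ndufs8 (-0.34 ± 0.098, adjusted p = 0.0666) and Atp5g3 (-0.20 ± 0.058, adjusted p = 0.0699), all by edgeR. The lowest value of all members was -0.48 ± 0.24 for Ndufa12 (adjusted p = 0.289, edgeR). DESeq2 called 1 member, Uqcrc1. With edgeR 1 member was called without the second parental DMSO library, 3 without the second knock-out DMSO library and 1 without the first knock-out CHIR99021 library.

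Knock-out against parental cells in DMSO compares the lines without inhibitor. Here 1 of 77 members was higher and 3 were lower, against 3.13% and 3.62% of all genes tested, 6.75% in all. The median was -0.041, with 53 of 77 members below 0 and the median of all genes at 0.0030. The 3 lower genes were the core protein Uqcrc2 of complex III and 2 subunits of the central stalk of the ATP synthase. Uqcrc2 went from 214 and 210 to 187 and 188 CPM, or -0.18 ± 0.041 (adjusted p = 0.029, edgeR). Atp5e, the ε subunit, went from 97.9 and 98.1 to 83.8 and 79.8 CPM, or -0.26 ± 0.050 (adjusted p = 0.0119, edgeR). Atp5c1, the γ subunit that forms the shaft, went from 311 and 306 to 275 and 279 CPM, or -0.15 ± 0.036 (adjusted p = 0.0284, edgeR). The highest value of all members, 0.27 ± 0.17 for Ndufa12, did not pass the test (adjusted p = 0.397, edgeR). Nor did Ndufb4, at -0.25 ± 0.090 (adjusted p = 0.136, edgeR). In this comparison 1 of 3 tested endoderm markers and 1 of 3 tested fibroblast markers were higher in the knock-out, and 1 of 6 pluripotency markers was lower, with all 6 below 0. Their part in the members' values was not tested. Without either parental DMSO library no member was called, 1 without either knock-out DMSO library, and 2 without the first knock-out CHIR99021 library. Members stood higher in the first knock-out DMSO library than in the second (median log2 difference 0.082, 65 of 77 higher). Without the second knock-out DMSO library the median turned to 0.0098, and scaling by library totals alone gave 2 higher and 1 lower.

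Knock-out against parental cells under CHIR99021 asks how the lines differ with GSK3 inhibited in both. This comparison held most of the calls among the members: 23 of 77 were lower and 1 was higher in the knock-out. Over all genes tested 12.5% were lower and 11.2% higher, 23.7% in all. The share of members called in either direction (24 of 77) was thus above the background. The median standard error was 0.055 for the members and 0.10 for all genes, so smaller changes can be called among the members. The excess was on the lower side alone, and the share of members that were higher was below the background. The median was -0.10, with 72 of 77 members below 0, and over all genes it was 0.00069. The comparison shares the parental CHIR99021 libraries with that of CHIR99021 against DMSO in parental cells, so the 7 members that were higher there and lower here rest in part on the same 2 libraries. No change exceeded 1.32-fold.

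**Figure D3:**
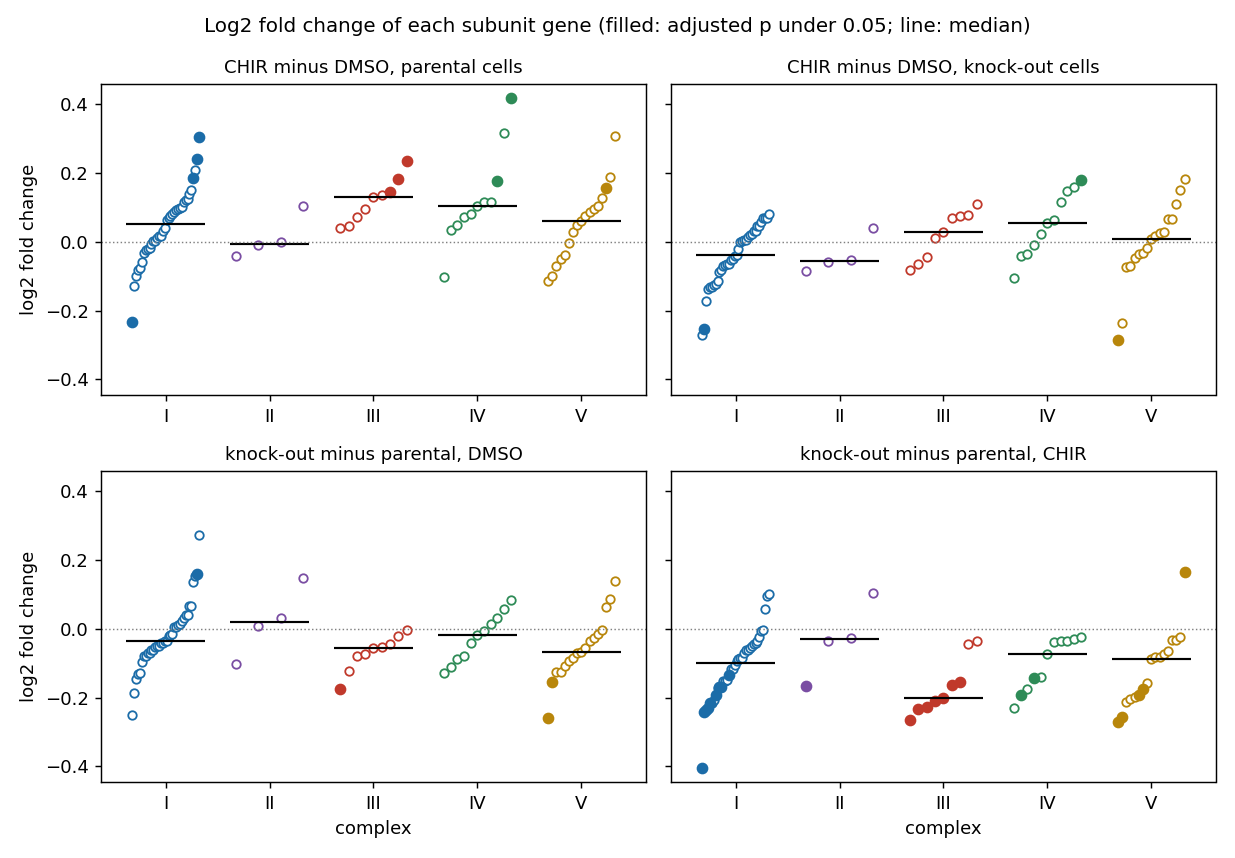
Log2 fold change (vertical axis) of the 77 tested genes by complex (horizontal axis) in 4 comparisons; filled points passed an adjusted p under 0.05 (edgeR), open points did not, and the line is the median of the complex. With CHIR99021 the knock-out values lie below 0 for 72 of 77 genes, lowest for complex III with a median of -0.20, and each panel of the upper row shares libraries with both panels of the lower row.

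Complex III stood lowest. Of its 9 genes 7 were lower in the knock-out under CHIR99021, all 9 had negative values, and the median was -0.20. Uqcrc1 was at 368 and 370 CPM in parental and at 325 and 306 CPM in knock-out libraries, a log2 fold change of -0.23 ± 0.044 (adjusted p = 0.00334, edgeR). Cyc1 (chr15:76343523-76346260, plus strand), which encodes cytochrome c1, the haem protein that hands electrons to cytochrome c, was at 197 and 198 CPM against 177 and 166 CPM. That made -0.20 ± 0.046 (adjusted p = 0.00842, edgeR). Uqcrfs1 was at 110 and 114 CPM against 102 and 100, or -0.15 ± 0.041 (adjusted p = 0.0194, edgeR). So 3 genes of the electron path or its scaffold lay lower in both knock-out libraries than in both parental ones.

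The remaining called genes of complex III were the second core protein and 3 small subunits. Uqcrc2 had -0.16 ± 0.041 (adjusted p = 0.0147, edgeR), and its value with DMSO was of like size (-0.18). Uqcr11 (chr10:80402997-80406830, minus strand) was at 86.9 and 79.0 CPM in parental and at 71.0 and 67.0 CPM in knock-out libraries, or -0.26 ± 0.064 (adjusted p = 0.0113, edgeR). Uqcrq went from 85.4 and 81.3 to 71.8 and 69.9 CPM, and Uqcr10 from 106 and 101 to 89.0 and 90.4 CPM. Uqcrb and Uqcrh, 2 further small subunits, did not pass the test, with -0.035 ± 0.039 and -0.044 ± 0.048. Uqcrh overlapped between groups, at 170 and 161 CPM against 155 and 166 CPM. The count of 7 was 3 without the first parental CHIR99021 library, 3 without the first and 2 without the second knock-out CHIR99021 library.

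**Figure D4:**
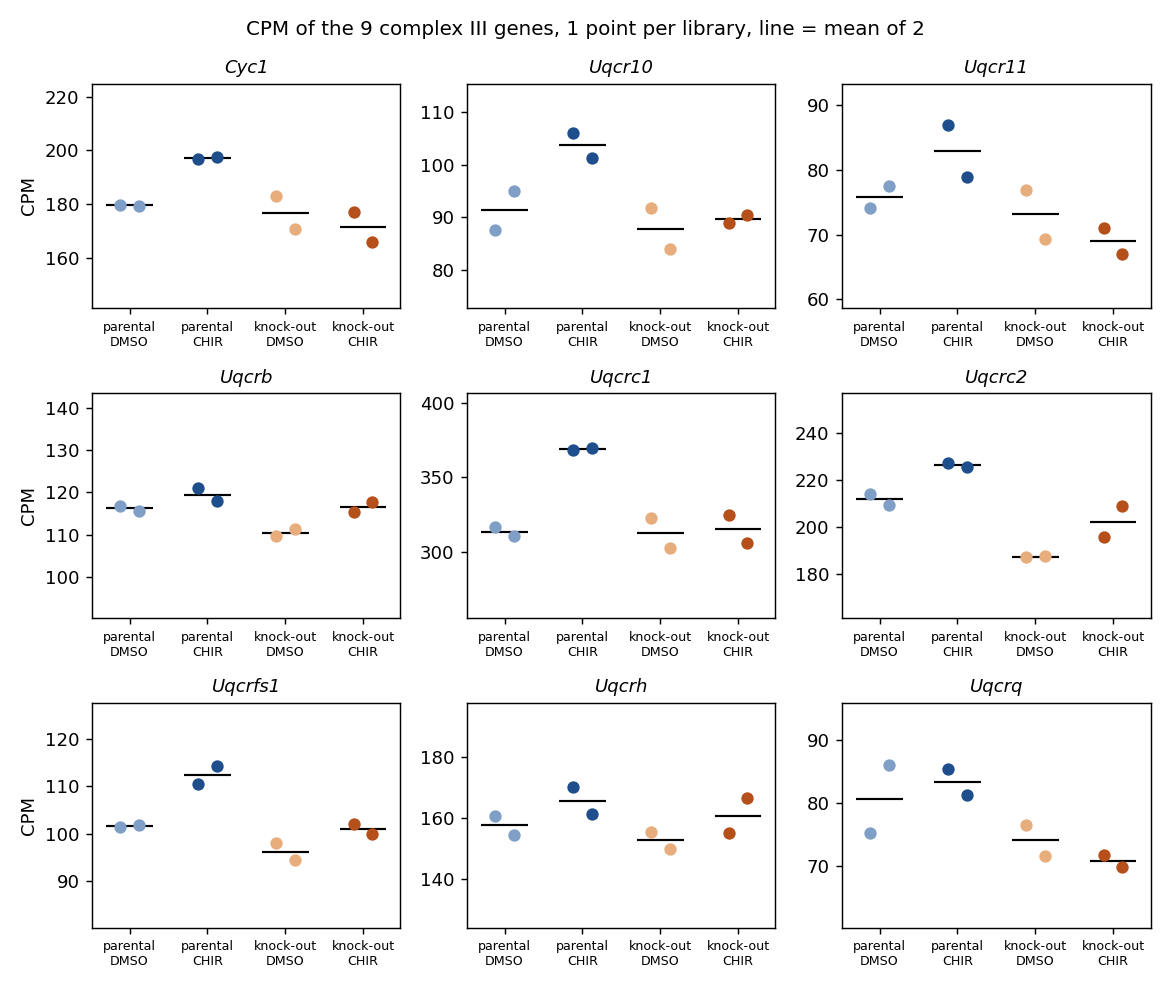
CPM (vertical axis, not starting at 0, on the same relative scale in each panel) of the 9 complex III genes in the 4 groups; each point is 1 library and the line the mean of 2. Both parental CHIR99021 libraries lie above both knock-out CHIR99021 libraries for all genes but Uqcrh, and for all but Uqcrh and Uqcrq they lie above all 6 other libraries, by very little for Uqcrb.

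Promoters of these genes are of interest because 3 transcription factors, NRF1, the ETS factor GABP and YY1, are known to bind many respiratory chain promoters. RefSeq promoters of GRCm38.p6, 250 bases before to 50 after each start, were found for 68 of the 81 members (74 promoters). Each was searched on both strands for the NRF1 core GCATGCGC, the ETS letters CCGGAAG and the YY1 letters AAGATGGC. The NRF1 core was in 13.5% of member promoters and in 2.71% of all 32851 promoters of the same length. The ETS letters were in 21.6% against 8.86%, and the YY1 letters in 16.2% against 2.75%. Any of the 3 was in 43.2% against 13.3%. The stretches around such matches are given for 2 complex III genes that were lower in the knock-out under CHIR99021 (Uqcr11, Uqcrc1), 1 complex III gene that did not pass the test (Uqcrh), and 1 lower gene each of complexes I and II (Ndufs8, Sdhd). They run 5′ to 3′ on the strand of the gene, with the matched letters or their reverse complement in capitals.
Uqcr11: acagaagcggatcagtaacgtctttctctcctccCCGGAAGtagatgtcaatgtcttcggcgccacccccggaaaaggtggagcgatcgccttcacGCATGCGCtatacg
Uqcrc1: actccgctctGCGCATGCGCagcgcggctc
Uqcrh: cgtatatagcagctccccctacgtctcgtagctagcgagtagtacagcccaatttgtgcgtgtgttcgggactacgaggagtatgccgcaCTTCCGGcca
Ndufs8: taggctccgcCTTCCGGttgaaccgcatct
Sdhd: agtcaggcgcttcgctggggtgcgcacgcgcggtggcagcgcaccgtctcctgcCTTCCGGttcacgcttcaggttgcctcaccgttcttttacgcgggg

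The Uqcr11 stretch lies at chr10:80406812-80406921 (minus strand) and holds an ETS and an NRF1 match, the latter across the start. In Uqcrc1 (chr9:108936668-108936697, plus strand) the 2 overlapping NRF1 matches are 1 palindromic stretch read on both strands, just inside the first exon. The Uqcrh stretch is at chr4:116075071-116075170 (minus strand), that of Sdhd at chr9:50603850-50603949 (minus strand), both upstream of the start. The Ndufs8 stretch at chr19:3912740-3912769 (minus strand) lies just after it. Whether such letters go with the lower values was not tested. No promoter was found for Cyc1, Uqcrc2 and Uqcrq, which were among the lower complex III genes, so these were not searched. Of the 31 tested members with at least 1 of the 3 motifs 9 were lower in the knock-out under CHIR99021, with a median of -0.089. Of the 35 whose promoter held none 11 were lower, with a median of -0.15. A match is a description of letters, and no match says only that they are not in this window.

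In complex I 9 of 36 genes were lower in the knock-out under CHIR99021 and none was higher. Lowest of all members was Ndufs8, at 45.1 and 44.1 CPM in parental and at 35.8 and 31.5 CPM in knock-out libraries. Its log2 fold change was -0.40 ± 0.068 (adjusted p = 0.0015, edgeR). Ndufv2 (chr17:66078638-66101559, minus strand), an iron-sulfur subunit of the NADH-oxidising module, went from 120 and 121 to 104 and 98.9 CPM, or -0.24 ± 0.042 (adjusted p = 0.00177, edgeR). Ndufv1 of the same module, which binds FMN and NADH, had -0.13 ± 0.042 (adjusted p = 0.0414, edgeR), and the accessory subunit Ndufs4 had -0.19 ± 0.048 (adjusted p = 0.0133, edgeR). The accessory subunits Ndufa7, Ndufb6, Ndufb11 and Ndufc1 and the gene Ndufa4 were also lower, by 0.17 to 0.24 on the log2 scale. Ndufs1, the largest subunit of the complex, was at 292 and 303 CPM against 296 and 298 CPM, and its groups overlapped.

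Among the 4 genes of complex II, Sdhd was lower, at 126 and 124 CPM in parental and at 112 in both knock-out libraries. That was -0.17 ± 0.038 (adjusted p = 0.00797, edgeR). The other membrane anchor, Sdhc, leaned the other way, 0.10 ± 0.045 (adjusted p = 0.123, edgeR), and the catalytic subunits Sdha and Sdhb had -0.036 ± 0.037 and -0.025 ± 0.043. In complex IV 2 of 11 tested genes were lower: Cox5a, with -0.19 ± 0.062 (adjusted p = 0.0441, edgeR), and Cox7b, with -0.14 ± 0.044 (adjusted p = 0.036, edgeR). The remaining 9 had negative values without passing the test.

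In complex V 4 of 17 genes were lower and 1 was higher. Atp5g3 (chr2:73908447-73911326, minus strand) had the smallest adjusted p of all members, going from 316 and 298 to 254 and 256 CPM. Its log2 fold change was -0.27 ± 0.041 (adjusted p = 0.000739, edgeR). The central stalk subunits Atp5d and Atp5e were lower by 0.26 and 0.19 on the log2 scale, and Atp5f1, subunit b of the peripheral stalk, went from 380 and 391 to 335 and 347 CPM. Atp5b and Atp5a1 had -0.025 ± 0.034 and -0.032 ± 0.034, so the most abundant pair of the module did not pass the test. The 1 higher member was Atp5l, subunit g, with 0.17 ± 0.051 (adjusted p = 0.0365, edgeR). When reads of its near-identical copies were added, its log2 fold change was 0.037 (adjusted p = 0.642, edgeR).

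Of the 24 calls in this comparison, those of Atp5g3, Ndufs8, Ndufv2 and Uqcrc1 held under all 17 alternative settings. The count was 8 without the first parental CHIR99021 library, 9 without the first and 6 without the second knock-out CHIR99021 library, while the median kept its sign in every fit. Scaling by library totals alone gave 16 lower and 3 higher members (60 of 77 below 0), and upper-quartile scaling 18 lower and 3 higher. In this comparison 4 of 6 neural markers were higher in the knock-out, 2 of 3 tested endoderm markers were higher, and of the pluripotency markers 2 were lower and 1 higher, and of 3 tested fibroblast markers 1 was higher and 1 lower. The part of these differences in the members' values was not tested. Of the 77 members, 46 were called in none of the 5 comparisons.

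Members are short genes, with a median exon length of 1675 bases against 3724.5 for all tested genes, and 21 of them overlap another tested gene, in each case at least 1 on the opposite strand. Spearman's correlation of exon length with log2 fold change across the 77 members was 0.20 for knock-out against parental cells under CHIR99021 and -0.21 for CHIR99021 in parental cells, given as a description. Over the 17680 tested genes with an exon length the same correlations were 0.11 and -0.056. Overlap was read from the start and end of each gene, introns included, and shared exons were not checked. The strand setting of the authors' counting was not given in the sources used here. Whether reads of such pairs were mixed is therefore not known. Called members with such a partner included Ndufb6 (with Toporsos), Ndufb11 (with Rbm10), Uqcrc2 (with Pdzd9), Atp5d (with Cbarp), Atp5f1 (with Gm42890 and Wdr77), Cox5a (with Gm26631) and Cox6c (with Vps13b).

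The 13 subunits encoded by the mitochondrial genome, partners of the nuclear subunits in complexes I, III, IV and V, showed another pattern. They summed to 33000 to 34200 CPM in parental DMSO, 36490 to 37200 in parental CHIR99021, 31310 to 33880 in knock-out DMSO and 37510 to 39990 in knock-out CHIR99021 libraries. CHIR99021 libraries thus lay above DMSO libraries in both lines. With CHIR99021 5 of 13 rose in parental cells and 8 of 13 in knock-out cells, and none fell. Of all genes tested 9.1% rose in parental and 2.88% in knock-out cells. The complex I subunit mt-Nd1 rose by 0.30 ± 0.043 in parental (adjusted p = 0.000513, edgeR) and by 0.24 ± 0.043 in knock-out cells (adjusted p = 0.0101, edgeR). The catalytic subunit mt-Co1 of complex IV had 0.16 ± 0.054 in parental cells (adjusted p = 0.0658, edgeR) and rose by 0.43 ± 0.054 in knock-out cells (adjusted p = 0.00132, edgeR). The ATP synthase subunits mt-Atp6 and mt-Atp8 were called in neither line. In complex III, where 3 of 9 nuclear subunits rose in parental cells, the mitochondrially encoded mt-Cytb had 0.044 (adjusted p = 0.522, edgeR). In the knock-out against parental cells under CHIR99021, 2 of the 13 were higher (mt-Co3 and mt-Atp6) and 1 was lower (mt-Nd1). The shares of all genes tested were 11.2% and 12.5%. With DMSO 1 was lower (mt-Co1), against 3.62% of all genes tested. The libraries were made from polyadenylated RNA, so the level of mitochondrial transcripts also depends on their short tails.

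**Figure D5:**
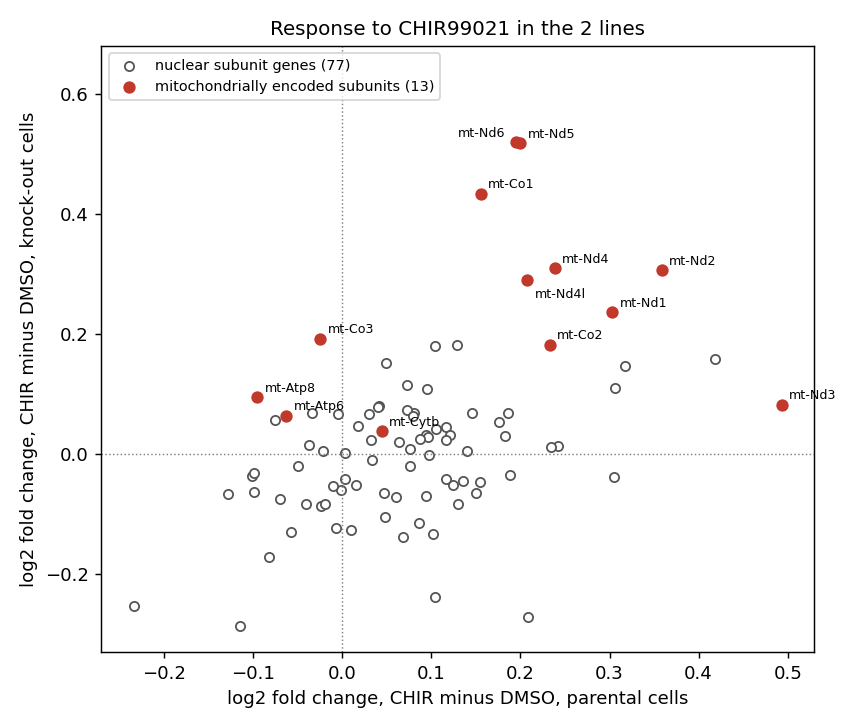
Log2 fold change for CHIR99021 against DMSO in parental cells (horizontal axis) and in knock-out cells (vertical axis) for the 77 nuclear subunit genes (open circles) and the 13 mitochondrially encoded subunits (filled, named). All 13 mitochondrial values lie above 0 in knock-out cells, where 38 of the 77 nuclear ones do, and the axes share no libraries.

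Subunits and carriers that the symbol pattern missed (Cox4i1, Cox4i2, Ndufab1, Ndufa4l2, Cox7a2l, Usmg5, 2010107E04Rik and Cycs) were read from a separate list. Of these 8, 2 were lower in the knock-out under CHIR99021, against 12.5% of all genes tested. They were Usmg5, a small subunit of the ATP synthase, with -0.20 ± 0.057 (adjusted p = 0.0295, edgeR), and Cycs, cytochrome c itself, with -0.19 ± 0.062 (adjusted p = 0.0463, edgeR). Cox4i1, the usual isoform of its subunit, had 0.10 (adjusted p = 0.0698, edgeR) and stood at a mean of 579 to 631 CPM in the 4 groups, while Cox4i2 stayed at 1.16 to 1.66 CPM. None of the 8 was called in the other 4 comparisons.

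Genes that build and supply the complexes were counted in the same fit. For the lines under CHIR99021 the counts below stand beside 12.5% of all genes tested that were lower and 11.2% higher. No list was tested as a whole. In the knock-out under CHIR99021, 5 of 14 tested complex I assembly factors were called, 4 lower and 1 higher. Ndufaf1 was lower by 0.38 ± 0.065 on the log2 scale (adjusted p = 0.00167, edgeR). Of 20 complex IV assembly factors 4 were lower and 1 higher, with Cox11, which delivers copper, at -0.44 ± 0.068 (adjusted p = 0.000803, edgeR) and Cox20 at 0.88 ± 0.16 (adjusted p = 0.00204, edgeR). Of 6 complex III factors 1, Uqcc1, was lower, and of 4 ATP synthase factors 1, Atpaf2. None of 4 complex II factors was called. Of 22 genes of mitochondrial protein import 8 were lower and none higher, among them Tomm40, the pore of the outer membrane, and Timm50, a receptor of the inner membrane translocase, at -0.32 ± 0.056 (adjusted p = 0.00193, edgeR). Of 17 genes of pyruvate dehydrogenase and the citric acid cycle 5 were lower and 1 higher, including all 3 subunits of isocitrate dehydrogenase 3 (Idh3a, Idh3b, Idh3g), and Cs, citrate synthase. Of 77 mitochondrial ribosomal protein genes 19 were lower and 1 higher, with a median of -0.094, close to that of the subunits.

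With CHIR99021 in parental cells 9.1% of all genes tested rose and 10.3% fell. Among assembly factors 2 of 14 for complex I, 1 of 4 for complex II and 1 of 20 for complex IV rose. So did 3 of 22 import genes, 4 of 17 citric acid cycle genes and 7 of 77 mitochondrial ribosomal genes, while 1 of the last fell. Coa5, a complex IV assembly factor, went from a mean of 151 to 180 CPM, or 0.26 ± 0.038 (adjusted p = 0.000653, edgeR), and it rose in knock-out cells too (0.16 ± 0.038, adjusted p = 0.0292, edgeR). In knock-out cells none of the import and citric acid cycle genes was called, and 4 of the 77 mitochondrial ribosomal genes fell. The shares of all genes tested were 2.88% higher and 4.18% lower. Knock-out cells in DMSO had 2 of the 17 citric acid cycle genes higher and 2 lower, against 3.13% and 3.62% of all genes tested.

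Among the regulators of mitochondrial transcription, Nrf1 was at mean levels of 66.7 CPM in parental DMSO, 67.7 in parental CHIR99021, 66.7 in knock-out DMSO and 58.6 in knock-out CHIR99021 cells. It was lower in the knock-out under CHIR99021, by 0.21 ± 0.053 on the log2 scale (adjusted p = 0.0147, edgeR). Gabpb1, a partner subunit of GABP, was lower in the knock-out with DMSO (-0.25 ± 0.060, adjusted p = 0.0301, edgeR) and with CHIR99021 (-0.21 ± 0.059, adjusted p = 0.0231, edgeR). Its DNA-binding partner Gabpa was called in no comparison, nor were Yy1, Esrra, Ppargc1b, Tfam, Tfb1m, Tfb2m and Polrmt. Pprc1 fell with CHIR99021 in knock-out cells (-0.16 ± 0.043, adjusted p = 0.0441, edgeR). Myc, a growth regulator that also acts on mitochondrial genes, was at 64.0 CPM in parental DMSO, 49.4 in parental CHIR99021, 82.6 in knock-out DMSO and 42.2 in knock-out CHIR99021 cells (means of 2), and was called in all 5 comparisons.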

How the data were processed

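Estimated counts per gene were made by the authors with kallisto on GRCm38.p4, per the submitters' processing notes. The kallisto version, transcript set and strand setting were not given in the sources used here. The deposited values, 36.9% to 38.4% of them not whole, were rounded. Libraries were poly(A)-selected with a stranded kit, per the labels' protocols. Totals were 23650572 to 27680649 per library.

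Genes were kept by edgeR's filterByExpr (minimum count 10, minimum total 15), scaled by TMM and fitted over 4 groups and 8 libraries with the quasi-likelihood test (edgeR 4.0.16, R 4.3.3). P-values were adjusted after Benjamini and Hochberg over 17739 genes, with calls at 0.05. Log2 fold changes carry the fit's standard error. The script was tested on simulated data. Coordinates and exon lengths are from GENCODE M21 (GRCm38), promoters from RefSeq (GRCm38.p6), and near-identical copies from BLAST 2.17.0. Alternatives were DESeq2 1.42.0, 3 other scalings, 2 other filters, the compared groups alone, a replicate block, each of the 8 libraries left out and, added after seeing the data, reads of copies added to the member.

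The members and all gene lists were chosen with earlier results of these data known. Genes eligible for naming were Ctnnb1, up to 30 called members by adjusted p, the 3 highest and 3 lowest members per comparison, the highest per kb in each complex, the isoform genes, the subunits outside the symbol pattern, up to 3 genes per other list and the regulators. Not every eligible gene or value is described. Ndufa12, Ndufb3, Ndufb4, Ndufb7, Ndufc2 and Ndufv3 were eligible by a high or low value and were called in no comparison. Further genes named for comparison within a complex or list were chosen after their values were seen. The values of 1 member are not reported here.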

Additional observations from a re-analysis of the deposited data

Results flagged for a closer look

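The response to CHIR99021 differed between the lines for 7 of the related genes named here and for no member. The test was the interaction in edgeR's quasi-likelihood fit, at an adjusted p under 0.05. Related genes were named in part for a small adjusted p in this same test, so the 2 counts cannot be compared. Of all genes tested 6.13% were called, and of the 77 mitochondrial ribosomal genes 4. On the log2 scale, knock-out minus parental response, the mitochondrial ribosomal genes Mrpl12, Mrpl30 and Mrpl44 had -0.358 (adjusted p = 0.00706), -0.282 (adjusted p = 0.0195) and -0.376 (adjusted p = 0.0224). All 3 had positive values in parental and negative values in knock-out cells. Tomm40, the outer membrane import pore, had -0.270 (adjusted p = 0.0424), with 0.13 in parental and -0.14 in knock-out cells. Myc had -0.596 (adjusted p = 0.00356): it fell in both lines, by 0.37 and by 0.97. The complex I assembly factor Tmem126b had 0.405 (adjusted p = 0.0301), and mt-Co3, a mitochondrially encoded subunit of complex IV, 0.217 (adjusted p = 0.0226). These calls were not equally stable: with 1 of the 8 libraries left out in turn, those of Mrpl12 and Myc held in all 8 fits, those of Mrpl44 and mt-Co3 in 3, that of Mrpl30 in 2 and those of Tomm40 and Tmem126b in 1. Over all alternatives the adjusted p reached 0.178 for Tomm40 and 0.262 for Tmem126b.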

How the results depend on the processing

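No called member changed direction under any alternative run. Leaving out 1 library at a time, the number of members called ran from 1 to 12 for CHIR99021 in parental cells, 0 to 3 for CHIR99021 in knock-out cells, 0 to 3 for the lines in DMSO, 6 to 26 for the lines in CHIR99021 and 0 to 3 for the interaction. A group left with 1 library was assumed to vary like the others. The median log2 fold change ran in the same order from 0.020 to 0.11, -0.061 to 0.035, -0.086 to 0.0098, -0.16 to -0.068 and -0.12 to -0.034. The lines in DMSO gave 2 called members when fitted alone. For the interaction the number was 1 with DESeq2, 7 with no filter, 1 with the stricter filter and 3 with the replicate block. The labels state no pairing by replicate number, and over all genes deviations of same-numbered libraries correlated at -0.056 to 0.10. Members stood higher in the first library of the parental CHIR99021, knock-out DMSO and knock-out CHIR99021 groups (61, 65 and 50 of 77). In parental DMSO 34 of 77 did. Whether same-numbered libraries share an effect on the members was not tested. The block gave 9, 3, 4 and 24 called members in the other 4 comparisons. Library totals alone moved the median of all genes to 0.037 in both comparisons of the lines, and the members' median in CHIR99021 to -0.069; in DMSO the members split into 34 above and 43 below 0. With 2 libraries a group, depth and spread limited what could be called: the smallest called change of a member was -0.13 (Ndufv1, lines in CHIR99021). This is not a limit of detection, because the standard error differed between genes. In the same comparison the related gene Hspa9 was called at -0.11 (adjusted p = 0.0332, edgeR).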
